A study of Mus musculus with 9 samples.

Results

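The genes described here are 50 genes of G2 phase and mitosis: the mitotic cyclins and Cdk1, the kinases that drive mitotic entry, the spindle checkpoint, the anaphase-promoting complex (APC/C) and its partners, kinetochore and chromosomal passenger proteins, mitotic kinesins, spindle proteins and the cytokinesis machinery. They were listed by their role in cell division, as 50 of the 55401 gene IDs counted, with earlier results of these data known. All 50 had enough counts to be among the 13501 genes tested. RNA was sequenced from primary peritoneal macrophages, labelled Thio-elicited, of mice of 3 genotypes, with 3 poly(A) libraries each: wild type (WT), Stat6S807A/S807A (SA) and Stat6S807E/S807E (SE). The protein, STAT6, transmits IL-4 and IL-13 signals to the nucleus. In SA mice Ser807 is replaced by alanine, which cannot be phosphorylated, and in SE mice by glutamate, a negatively charged residue often used to imitate a phosphate. Cells of every group were cultured in DMEM plus 10% fetal bovine serum and harvested once they had adhered for a short time, and the labels name no cytokine or other treatment for any group. The series title links phosphorylation of this serine to protection of macrophages from senescence, the state in which cells leave the cycle for good. The labels give neither the age nor the sex of the mice, nor whether each library came from a separate animal or a pool, so p-values here measure the spread between these libraries only.

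A dividing cell makes cyclin A2 and the B-type cyclins late in the cycle, and these switch on Cdk1, which drives the cell into mitosis. Kinetochores then attach chromosomes to the spindle, the spindle checkpoint holds back the APC/C until every chromosome is attached, and the APC/C with its activator Cdc20 then marks securin and cyclin B for destruction so that sister chromatids separate and the cell divides. Transcripts of these genes are made in G2 and mitosis and are low in resting cells. Elicited peritoneal macrophages divide little, so in bulk RNA a small share of cycling cells can carry most of these transcripts. From bulk libraries a smaller number of cycling cells and less of these RNAs per cell cannot be told apart.

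Many promoters of this class carry 2 short elements: CHR, the cell cycle genes homology region bound by the MuvB core of the DREAM and B-MYB complexes, and CCAAT, bound by NF-Y. The promoters of 8 of the genes are shown here because they are the 5 whose lower level in SA held in every alternative analysis that tested them (Ccnb2, Hmmr, Cenpf, Ube2c and Ccnb1), Cdc20 and Top2a as further genes that were lower in SA, and Pttg1, whose level hardly differed between the genotypes. The sequences are from RefSeq, build GRCm38.p6 (mm10). Each is 150 bases, 5′ to 3′ on the gene's own strand, from 120 bases before the annotated start to 30 bases into the first exon. Capitals mark CHR letters (TTTGAA or TTCGAA) and CCAAT, read on either strand, so that TTCAAA and ATTGG are matches on the opposite strand. No CHR match overlapped a CCAAT match.
Ccnb2 (chr9:70421525-70421674, minus strand): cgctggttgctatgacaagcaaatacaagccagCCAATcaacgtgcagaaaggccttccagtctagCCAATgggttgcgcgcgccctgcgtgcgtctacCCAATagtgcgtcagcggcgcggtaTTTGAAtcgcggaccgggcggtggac
Hmmr (chr11:40733408-40733557, minus strand): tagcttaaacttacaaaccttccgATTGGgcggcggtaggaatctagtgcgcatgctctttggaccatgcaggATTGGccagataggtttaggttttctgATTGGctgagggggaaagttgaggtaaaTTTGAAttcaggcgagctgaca
Cenpf (chr1:189688057-189688206, minus strand): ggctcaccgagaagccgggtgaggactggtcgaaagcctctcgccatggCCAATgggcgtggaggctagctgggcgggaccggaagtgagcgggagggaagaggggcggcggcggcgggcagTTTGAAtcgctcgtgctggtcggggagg
Ube2c (chr2:164769809-164769958, plus strand): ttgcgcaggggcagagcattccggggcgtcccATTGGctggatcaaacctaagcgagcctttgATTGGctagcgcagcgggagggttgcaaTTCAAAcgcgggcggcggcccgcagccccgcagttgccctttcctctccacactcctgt
Cdc20 (chr4:118437314-118437463, minus strand): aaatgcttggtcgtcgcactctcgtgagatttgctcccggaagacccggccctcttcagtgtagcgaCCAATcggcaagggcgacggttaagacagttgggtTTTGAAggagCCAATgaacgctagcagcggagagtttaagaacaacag
Top2a (chr11:99024160-99024309, minus strand): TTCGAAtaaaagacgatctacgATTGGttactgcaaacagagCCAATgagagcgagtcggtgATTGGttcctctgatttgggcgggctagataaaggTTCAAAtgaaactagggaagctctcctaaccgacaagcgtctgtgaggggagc
Ccnb1 (chr13:100786457-100786606, minus strand): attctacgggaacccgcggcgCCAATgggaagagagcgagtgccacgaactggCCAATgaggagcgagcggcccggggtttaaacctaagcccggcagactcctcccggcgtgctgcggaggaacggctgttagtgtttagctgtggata
Pttg1 (chr11:43425952-43426101, minus strand): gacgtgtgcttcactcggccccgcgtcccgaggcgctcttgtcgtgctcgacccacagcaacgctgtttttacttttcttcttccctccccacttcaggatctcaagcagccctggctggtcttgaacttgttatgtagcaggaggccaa
In these windows Ccnb2 had 1 CHR match starting 5 bases after the start and 3 CCAAT matches before it. Hmmr also had 1 CHR match close behind the start and 3 CCAAT matches. Ccnb1 had 2 CCAAT matches and neither TTTGAA nor TTCGAA on either strand, and Pttg1 had no match of either element. Other spellings of CHR were not searched. The Pttg1 stretch lies inside the gene as drawn in GENCODE M21 (43420250 to 43426251), so sequence before the gene's outer end was not shown.

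Over the full RefSeq windows, from 250 bases before to 50 after the start, 42 of the 50 genes had a sequence. Of these, 33 (78.6%) held a CHR match, against 16.7% of the 9633 tested genes with a window and 21.7% of all 27025 genes with one. Within 50 bases of the start the shares were 71.4% of the mitotic genes and 4.51% of the tested genes. CCAAT occurred in 31 of 42 (73.8%) and in 42.9% of the tested genes. A strict E2F site (TTTCGCGC or TTTGGCGC on either strand) occurred in 2 of 42, Cdk1 and Kif15 (4.76%, against 1.83% of the tested genes). For some genes, Pttg1, Kif2c, Cdca8 and Kif4 among them, the window lay inside the gene as drawn in GENCODE M21. Sequence before the outer end of those genes was not searched. These are letter matches and were not tested as binding sites. The genes with a CHR match and those without one had similar median changes in SA, given below.

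**Figure D1:**
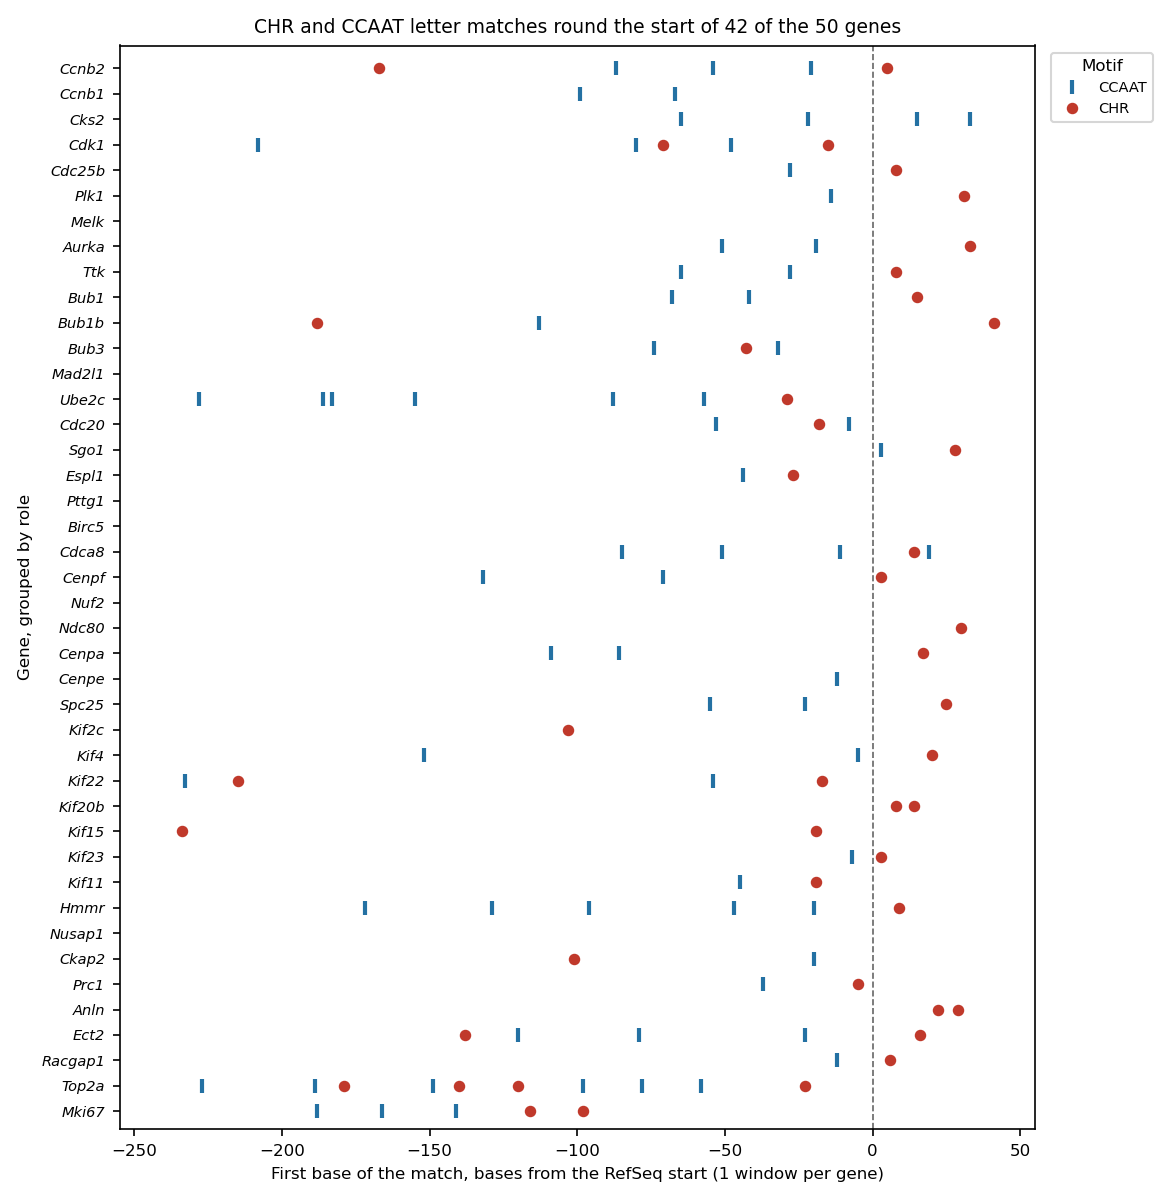
Positions of CHR (circles) and CCAAT (bars) letter matches in the promoter window of the 42 genes that had one; the x axis gives bases from the RefSeq start (dashed line), the y axis the genes grouped by role. CHR matches gather within 50 bases of the start, where 30 of the 42 genes had one.

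Some cyclin, APC/C, spindle and kinetochore genes were lower in SA macrophages than in WT. In all, 14 of the 50 were called lower in SA than in WT and 0 higher, where a call means that edgeR's quasi-likelihood test gave an adjusted p (Benjamini-Hochberg, over the 13501 genes tested) under 0.05. That is 28% of the genes, against 2.1% of all tested genes called lower and 1.97% called higher in this comparison. The median log2 change was -0.40, and 48 of the 50 estimates were negative, beside a median of 0.00 over all tested genes. The 14 were Ccnb2, Ccnb1, Ccna2, Ube2c, Cdc20, Bub1b, Cenpf, Cenpa, Kif2c, Hmmr, Nusap1, Anln, Top2a and Mki67, and their falls ran from 1.21-fold (Cenpa) to 2.43-fold (Ccnb2).

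In SE against WT, calls were few. Cenpa alone was called lower (1 of 50, 2%) and 0 were called higher, against 2.69% and 2.35% of all tested genes, so the share of calls was close to the background. The median log2 change was -0.01, with 24 estimates positive and 26 negative, and at an unadjusted p under 0.05 there were 1 higher and 5 lower. Tested directly against SA, 18 of the 50 were called higher in SE (36%) and 0 lower, where 4.77% of all tested genes were higher and 5.42% lower (644 and 732 genes, or 473 and 925 when libraries were scaled by their totals alone, which left 15 of the 50 higher and 0 lower). The median of that comparison was 0.42 with 47 estimates positive. The SA libraries enter 2 of these comparisons and the WT libraries enter 2, so the results are not independent of each other.

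**Figure D2:**
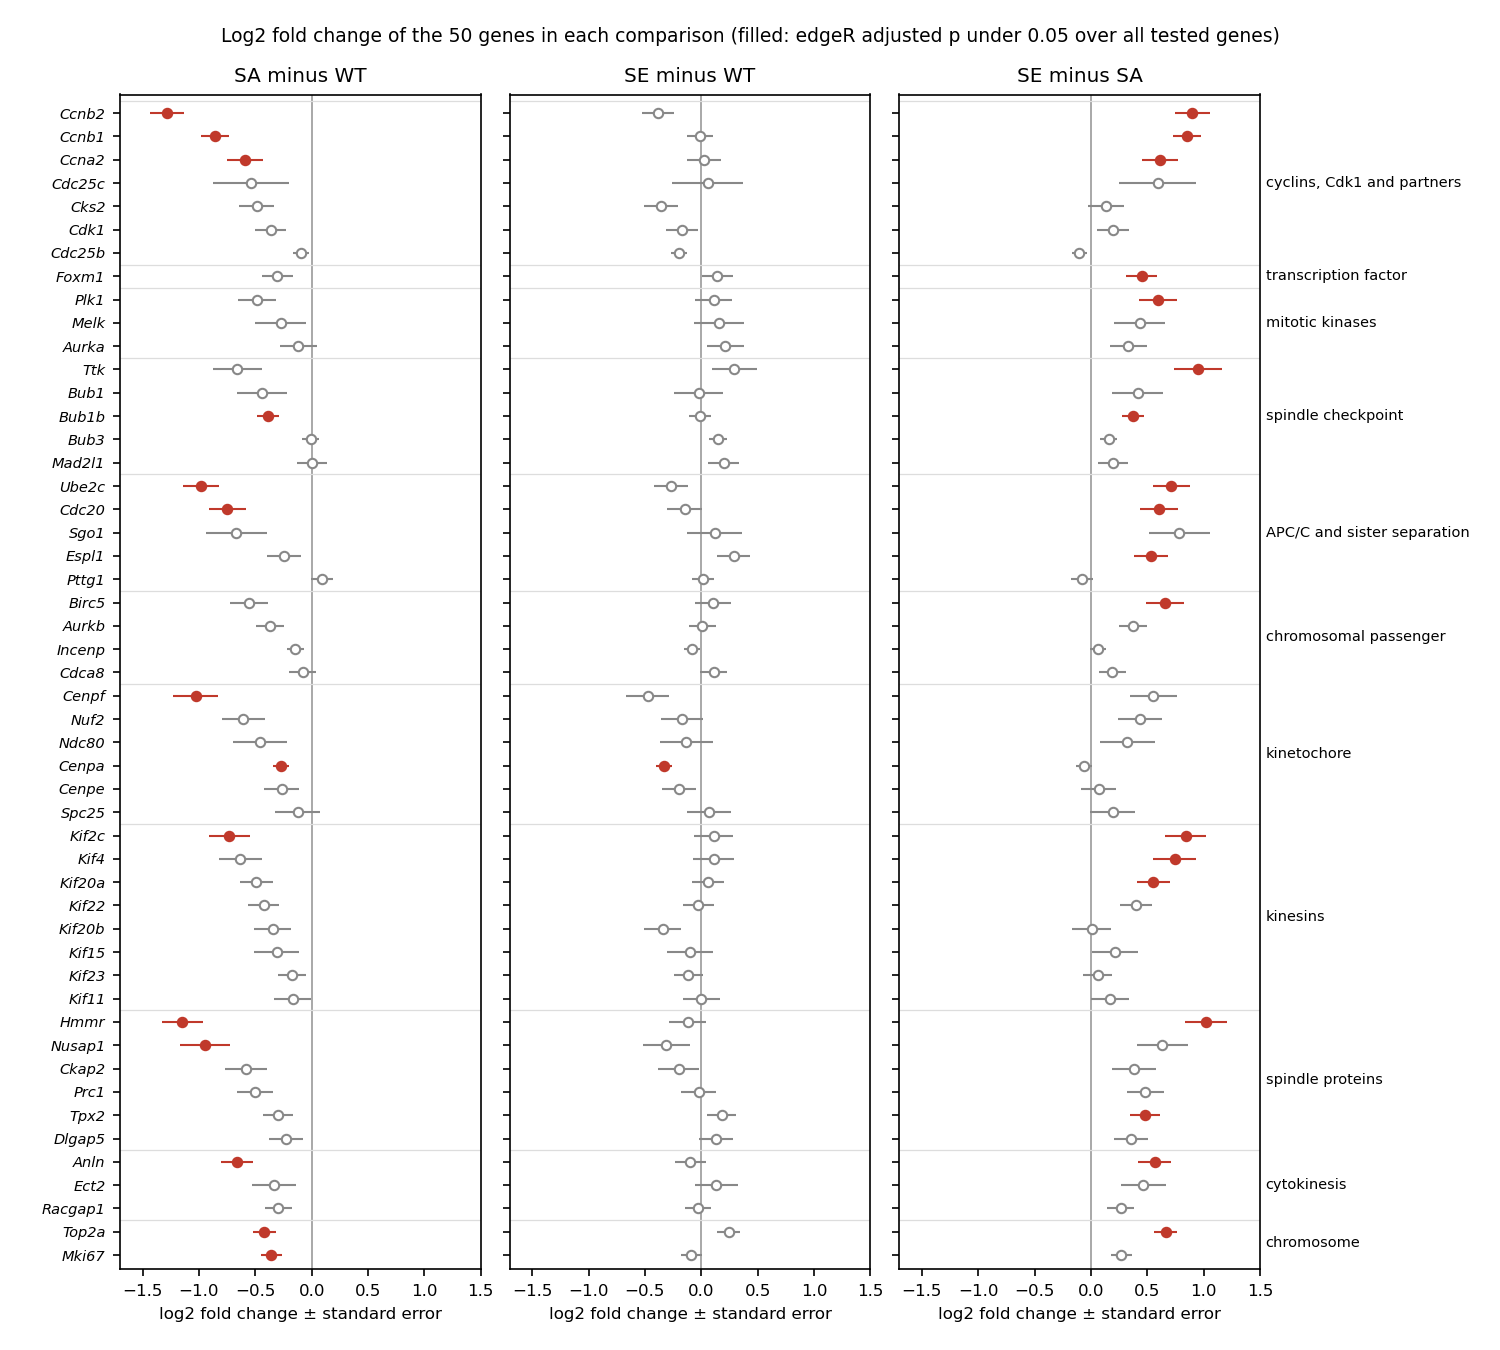
Log2 fold change with its standard error (x axis) of the 50 genes, grouped by role (y axis), for SA minus WT, SE minus WT and SE minus SA; filled red points passed edgeR's adjusted p of 0.05 over all tested genes. The SA minus WT points lie left of 0 except Mad2l1 and Pttg1, the SE minus WT points scatter around 0, and the SE minus SA points lie mostly right of 0.

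The cyclins that drive Cdk1 fell in SA. Ccnb2 (cyclin B2) was at 9.22, 10.1 and 9.90 CPM (read counts scaled to library size, with TMM factors) in WT libraries 1, 2 and 3, at 4.93, 4.02 and 2.93 CPM in SA and at 8.08, 6.63 and 7.59 CPM in SE. The 3 SA libraries lay below all others, and the SE libraries lay between the SA and WT libraries without overlap. Its mean of 9.74 ± 0.458 CPM in WT (SD, n = 3) and 3.96 ± 1.0 in SA differed 2.43-fold (log2 change -1.28 ± 0.15, the standard error, edgeR adjusted p = 4.63e-05). SE, at 7.43 ± 0.74 CPM, was 1.87-fold above SA (edgeR adjusted p = 0.00127), and its difference from WT did not pass the test (log2 change -0.38, 95% interval -0.73 to -0.04, edgeR adjusted p = 0.142).

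Ccnb1, cyclin B1, the main partner of Cdk1 at mitotic entry, was at 8.66, 9.50 and 7.63 CPM in WT, 4.71, 4.89 and 4.57 CPM in SA and 8.96, 7.85 and 8.68 CPM in SE. SA stood apart from both other genotypes, which overlapped. SA was 1.81-fold below WT (log2 change -0.86 ± 0.12, edgeR adjusted p = 0.000329) and 1.8-fold below SE (edgeR adjusted p = 0.00025). SE and WT differed by -0.01 on the log2 scale, with a 95% interval of -0.29 to 0.27.

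Ccna2, cyclin A2, which acts in S phase and early mitosis, was at 10.0, 8.04 and 8.88 CPM in WT, 7.40, 4.58 and 5.90 CPM in SA and 10.7, 8.37 and 8.32 CPM in SE. SA was 1.51-fold below WT (edgeR adjusted p = 0.045) and 1.53-fold below SE (edgeR adjusted p = 0.0211), with no overlap of its libraries with either. Of the exon bases of Ccna2, 12.5% are shared with Exosc9 on the opposite strand, which had 3401 counts over all 9 libraries against 1474 for Ccna2. The strand setting is not stated, so such reads cannot be told apart. The kinase itself, Cdk1, was at 14.0, 15.6 and 12.6 CPM in WT and 13.9, 9.21 and 9.34 CPM in SA, so SA library 1 lay within the WT range and the difference did not pass (log2 change -0.36 ± 0.14, edgeR adjusted p = 0.216). Cks2, a small Cdk1-binding subunit, and the Cdc25 phosphatases that activate Cdk1 were not called in any comparison. Cdc25b was among the more abundant genes and nearly level, with 33.8 ± 0.131 CPM in WT, 31.7 ± 1.2 CPM in SA and 29.5 ± 1.26 CPM in SE.

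Foxm1, the transcription factor that drives many G2/M genes, was at 8.34, 10.3 and 8.28 CPM in WT, 7.88, 6.46 and 7.24 CPM in SA and 11.6, 8.31 and 9.57 CPM in SE. Its SA libraries lay below the other 6, yet the difference from WT did not pass (log2 change -0.31 ± 0.14, edgeR adjusted p = 0.324). The SE level was 1.37-fold that of SA (edgeR adjusted p = 0.0462).

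Of the 3 kinases Plk1, Aurka and Melk, none was called against WT. Plk1, polo-like kinase 1, which acts from mitotic entry to cytokinesis, was at 5.11, 5.92 and 5.07 CPM in WT, 4.71, 3.11 and 3.54 CPM in SA and 5.39, 5.12 and 6.75 CPM in SE. All SA values were below all others, and SE was 1.51-fold above SA (edgeR adjusted p = 0.0327), while its change from WT to SA was -0.49 ± 0.17 on the log2 scale (edgeR adjusted p = 0.152). Aurka, the spindle pole kinase, had a change from WT to SA of -0.12 with a 95% interval of -0.52 to 0.28.

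The 5 spindle checkpoint genes split. Bub1b (BubR1), a part of the complex that inhibits Cdc20, was at 14.8, 13.4 and 13.9 CPM in WT, 11.3, 10.1 and 11.0 CPM in SA and 14.9, 12.8 and 14.2 CPM in SE. SA was 1.31-fold below WT (edgeR adjusted p = 0.0289) and 1.3-fold below SE (edgeR adjusted p = 0.0199). Ttk, the kinase Mps1 that starts checkpoint signalling, was at 1.92, 1.70 and 1.95 CPM in WT, 1.23, 1.07 and 1.23 CPM in SA and 2.65, 2.21 and 1.99 CPM in SE, and only the difference between SE and SA passed (1.93-fold, edgeR adjusted p = 0.0085; SA against WT, edgeR adjusted p = 0.128). Bub3 and Mad2l1, which also serve the checkpoint, gave estimates near 0 in SA. Bub3 was at 81.8 ± 7.48 CPM in WT, 81.2 ± 6.93 CPM in SA and 90.6 ± 3.95 CPM in SE, and its SA change had a 95% interval of -0.20 to 0.18 on the log2 scale. That of Mad2l1 was wider, -0.33 to 0.34.

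Ube2c and Cdc20, which together feed the APC/C, both fell in SA. Ube2c, the E2 enzyme that starts the ubiquitin chains, was at 6.23, 5.87 and 5.49 CPM in WT, 3.04, 2.85 and 3.03 CPM in SA and 5.58, 5.29 and 3.77 CPM in SE. The SA libraries lay close together and below the rest, and SE library 3 lay between SA and the other SE libraries. SA was 1.97-fold below WT (log2 change -0.98 ± 0.16, edgeR adjusted p = 0.00103) and 1.64-fold below SE (edgeR adjusted p = 0.00999). Of the annotated exon bases of Ube2c, 22.8% are shared with Tnnc2 on the opposite strand, a gene with 4 counts over all 9 libraries.

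Cdc20, the APC/C activator, was at 7.66, 8.91 and 6.42 CPM in WT, 4.93, 3.77 and 4.88 CPM in SA and 6.96, 5.52 and 8.11 CPM in SE. SA was 1.68-fold below WT (edgeR adjusted p = 0.0126) and 1.52-fold below SE (edgeR adjusted p = 0.0299). The genes of the proteins that act at sister separation were not called against WT. Pttg1 (securin) was at 10.0, 9.62 and 10.6 CPM in WT, 10.5, 11.0 and 10.9 CPM in SA and 10.6, 9.53 and 10.5 CPM in SE, and its change in SA was 0.10 with a 95% interval of -0.14 to 0.33 on the log2 scale. Espl1 (separase, the protease that securin holds back) had an SE level 1.45-fold that of SA (edgeR adjusted p = 0.0304) and did not pass the test against WT in either mutant. Sgo1, which protects centromeric cohesion, was not called in any comparison.

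**Figure D3:**
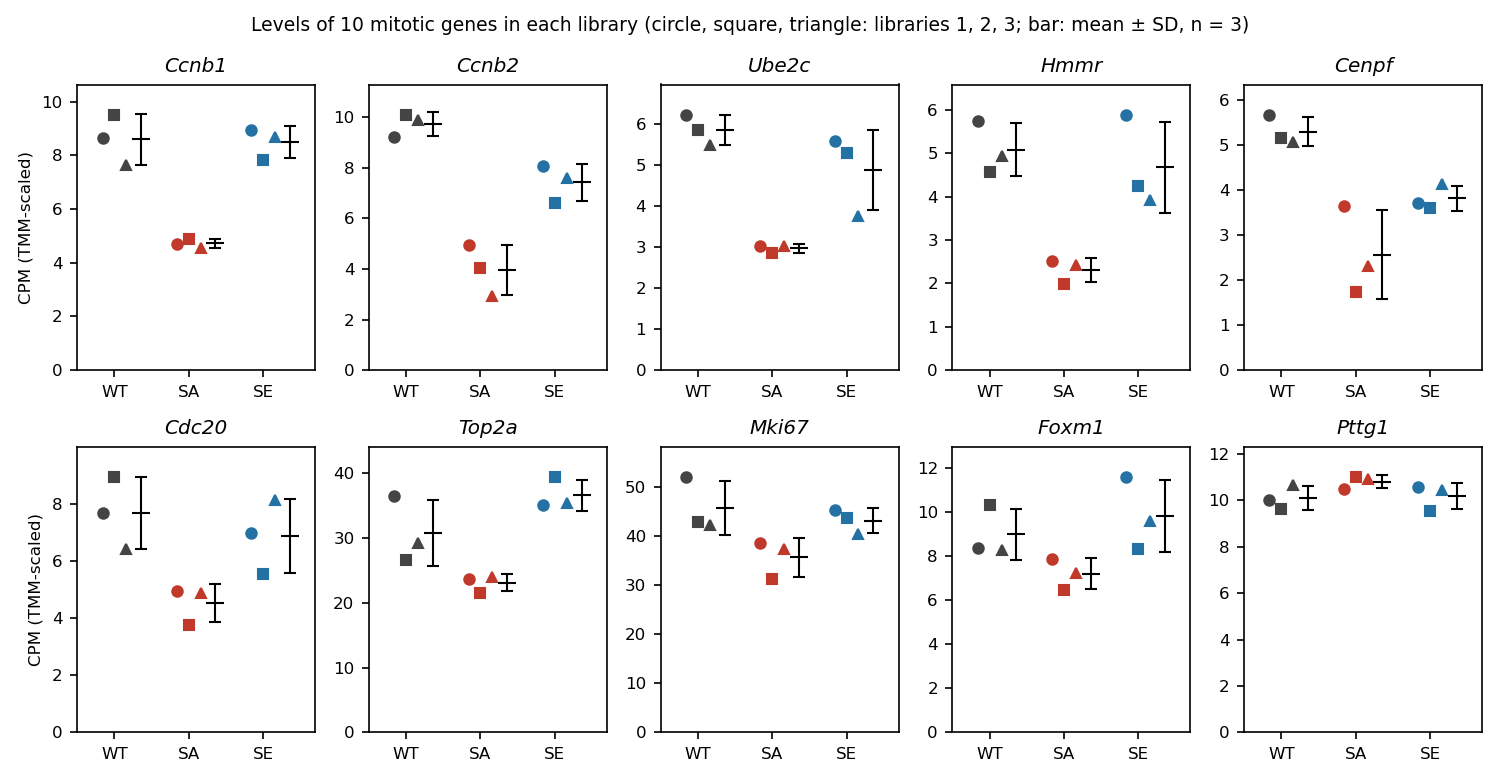
Level of 10 of the genes in each library (y axis, TMM-scaled CPM from 0; circle, square and triangle for libraries 1, 2 and 3 of each genotype on the x axis; bars, mean ± SD, n = 3). The SA libraries lie below the WT libraries for each gene drawn except Pttg1, at 10.8 ± 0.282 CPM in SA and 10.1 ± 0.519 in WT.

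Among the 4 genes of the chromosomal passenger complex, which corrects faulty chromosome attachments, none was called against WT. Birc5 (survivin) was at 5.99, 5.10 and 4.79 CPM in WT, 4.27, 3.31 and 3.23 CPM in SA and 6.42, 6.16 and 4.55 CPM in SE. SE was 1.57-fold above SA (edgeR adjusted p = 0.0199), and its difference from WT in SA did not pass (log2 change -0.55 ± 0.17, edgeR adjusted p = 0.0896). Incenp, the scaffold of the complex, changed by -0.14 with a 95% interval of -0.32 to 0.04.

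Of the 6 kinetochore genes, Cenpf and Cenpa were called. Cenpf, a large kinetochore protein that accumulates in G2, was at 5.67, 5.16 and 5.07 CPM in WT, 3.65, 1.73 and 2.31 CPM in SA and 3.72, 3.60 and 4.13 CPM in SE. It was 2.04-fold lower in SA than in WT (log2 change -1.03 ± 0.20, edgeR adjusted p = 0.00464). Its SE libraries also lay below all WT libraries, but neither SE against WT (log2 change -0.47, edgeR adjusted p = 0.184) nor SE against SA (edgeR adjusted p = 0.114) passed.

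Cenpa, the histone H3 variant that marks centromeres, was the gene that was lower in both mutants. It was at 47.2, 44.0 and 46.3 CPM in WT, 35.7, 38.3 and 39.9 CPM in SA and 36.2, 38.0 and 35.0 CPM in SE, with all 6 mutant libraries below the WT libraries. SA was 1.21-fold below WT (edgeR adjusted p = 0.0304) and SE 1.26-fold below WT (log2 change -0.33 ± 0.07, edgeR adjusted p = 0.00829). The SE call ended without WT library 3 (edgeR adjusted p = 0.0574). SE and SA differed by -0.06 on the log2 scale (95% interval -0.23 to 0.11). Nuf2 and Ndc80, which form the microtubule-binding complex with Spc25, were not called in any comparison.

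Of the 8 kinesins, the motors that move chromosomes and build the spindle, Kif2c was called lower in SA. Kif2c (MCAK), which takes microtubules apart at the centromere, was at 4.11, 3.05 and 3.63 CPM in WT, 2.11, 1.88 and 2.57 CPM in SA and 4.26, 3.37 and 4.08 CPM in SE. SA was 1.66-fold below WT (edgeR adjusted p = 0.0293) and 1.79-fold below SE (edgeR adjusted p = 0.00663), and its libraries overlapped with neither.

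Kif4, a chromosome-bound kinesin, and Kif20a, which acts in cytokinesis, were higher in SE than in SA by 1.67-fold (edgeR adjusted p = 0.0203) and 1.47-fold (edgeR adjusted p = 0.0229). Kif4 was at 5.51, 4.16 and 4.65 CPM in WT, 3.87, 2.29 and 3.08 CPM in SA and 6.22, 4.88 and 4.45 CPM in SE. Kif20a was at 8.66, 6.80 and 7.25 CPM in WT, 6.03, 4.33 and 5.85 CPM in SA and 8.42, 7.03 and 8.32 CPM in SE. For both, the SA libraries lay below all others, though SA against WT did not pass. Kif20a shares 29.3% of its exon bases with Cdc23 and Kif4 15.1% with Pdzd11, each on the opposite strand, and without a stated strand setting such reads cannot be told apart. The other 5 kinesins, among them Kif11 (Eg5), which pushes the spindle poles apart, were not called in any comparison, and the change of Kif11 in SA was -0.17 with a 95% interval of -0.57 to 0.23.

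Among the 6 spindle proteins Hmmr and Nusap1 fell in SA. Hmmr, a hyaluronan receptor that also works at the spindle poles, was at 5.75, 4.57 and 4.93 CPM in WT, 2.51, 1.99 and 2.41 CPM in SA and 5.88, 4.24 and 3.92 CPM in SE. The SA libraries lay well below the rest. SA was 2.21-fold below WT (log2 change -1.15 ± 0.18, edgeR adjusted p = 0.000879) and 2.03-fold below SE (edgeR adjusted p = 0.00181), and SE and WT differed by -0.12 (95% interval -0.53 to 0.29).

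Nusap1, which bundles microtubules, was at 6.70, 3.28 and 4.37 CPM in WT, 2.82, 2.19 and 2.57 CPM in SA and 3.82, 4.30 and 3.71 CPM in SE. WT library 1 was far above the other WT libraries, and without it the SA call ended (1.93-fold with all libraries, edgeR adjusted p = 0.0179; edgeR adjusted p = 0.113 without it). Tpx2, which activates Aurka on the spindle, was at 13.1, 11.7 and 11.1 CPM in WT, 10.3, 9.32 and 9.60 CPM in SA and 16.8, 13.1 and 10.8 CPM in SE, and only SE against SA passed (1.4-fold, edgeR adjusted p = 0.0303).

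Of the 3 cytokinesis genes, Anln (anillin, the scaffold of the contractile ring) was called. It was at 11.4, 8.68 and 8.83 CPM in WT, 6.91, 5.29 and 6.11 CPM in SA and 10.5, 8.55 and 8.11 CPM in SE. SA was 1.58-fold below WT (edgeR adjusted p = 0.0115) and 1.48-fold below SE (edgeR adjusted p = 0.0199). Ect2 and Racgap1, which activate RhoA at the division plane, were not called in any comparison.

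Top2a and Mki67 were the chromosome genes on the list. Top2a (topoisomerase II alpha, which untangles sister chromatids) was at 36.5, 26.6 and 29.3 CPM in WT, 23.7, 21.6 and 23.9 CPM in SA and 35.1, 39.4 and 35.4 CPM in SE. SA was 1.34-fold below WT (edgeR adjusted p = 0.0231) and SE 1.58-fold above SA (edgeR adjusted p = 0.000378). Mki67, the source of the Ki-67 proliferation antigen, was at 52.0, 42.9 and 42.4 CPM in WT, 38.6, 31.2 and 37.3 CPM in SA and 45.4, 43.7 and 40.4 CPM in SE. It was 1.28-fold lower in SA than in WT (edgeR adjusted p = 0.0375), and SE against SA did not pass (edgeR adjusted p = 0.0815).

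**Figure D4:**
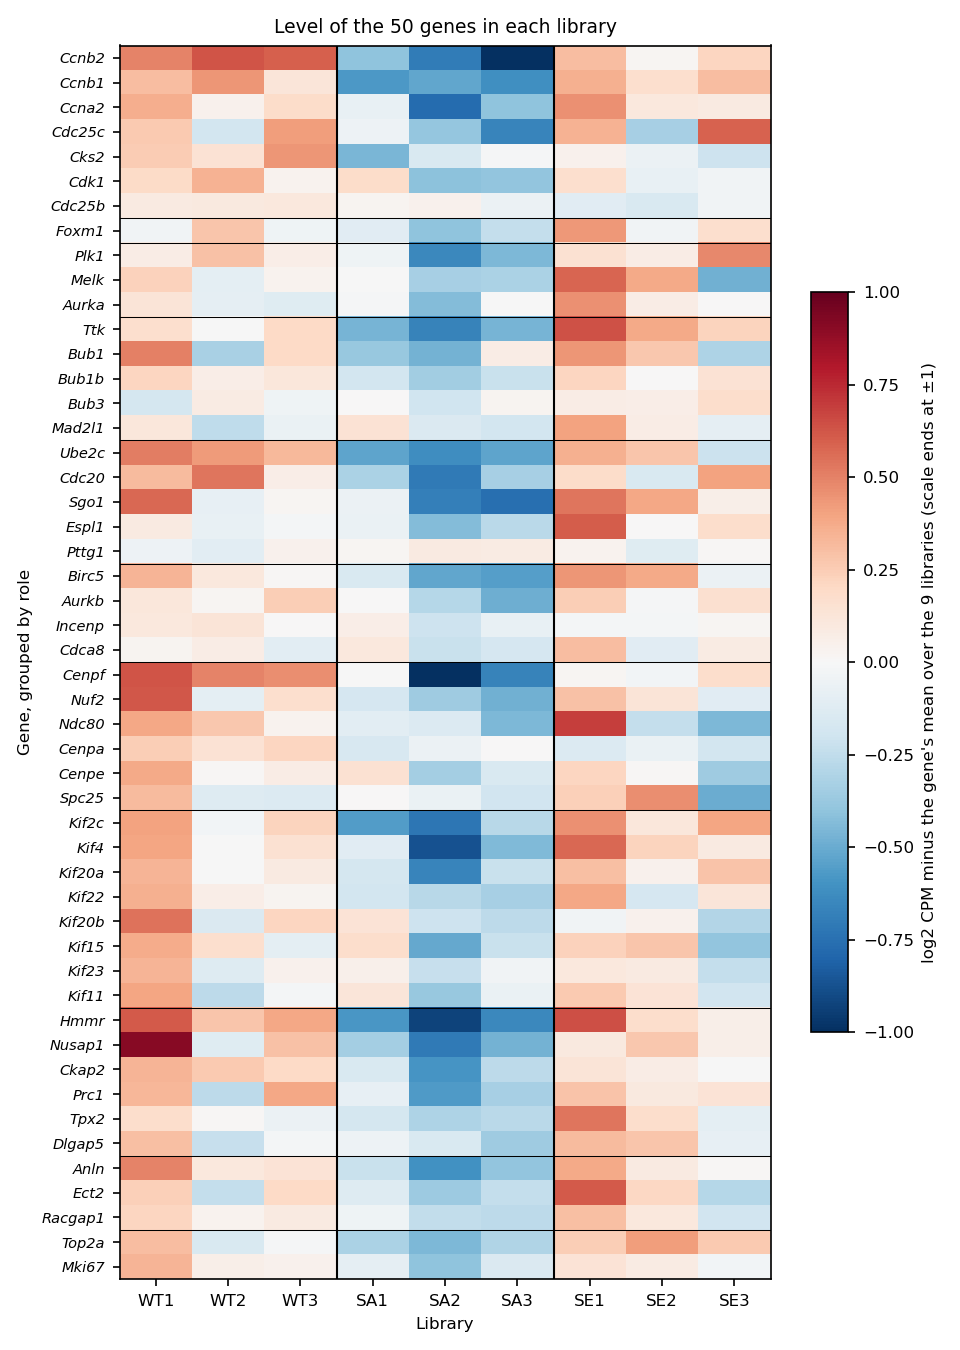
Log2 CPM of each of the 50 genes (y axis, grouped by role) in each of the 9 libraries (x axis) minus the gene's mean over the libraries; red is above and blue below the mean, and the colour scale ends at 1 in each direction. The SA columns are mostly blue, SA library 2 holds the lowest value of 29 genes, and WT library 1 and SE library 1 hold the highest value of 16 and 19 genes.

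Counted by library, 22 of the 50 genes had all 3 SA libraries below all 6 other libraries and 0 had them above, where 4.24% of all tested genes lay below. SA libraries lay wholly below WT for 29 genes (9.72% of all tested genes), and SE libraries wholly above SA for 27 (14.3% of all tested genes). Libraries also differed within a genotype. The libraries numbered 1 held the highest value of their genotype for 34 genes in WT, 40 in SA and 37 in SE, and they were also the deepest of each genotype, with 24618608, 22295907 and 20513292 counts. The part of depth or of anything else the libraries may share in this was not tested.

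The calls leaned on single libraries to differing degrees. In SA against WT, Ccnb2, Ccnb1, Hmmr, Ube2c and Cenpf were called in every one of the alternatives that tested them, including each library left out in turn. The other 9 lost the call at least once. The count of genes called lower was 5 without SA library 2, 6 without WT library 1, 8 without WT library 3 and 9 without SA library 1 or SA library 3. Over all tested genes, 283 were called lower with all libraries, 170 without SA library 2 and 269 without WT library 1. The all-gene count was 147 without WT library 3, 155 without SA library 1 and 198 without SA library 3. Cdc20 and Anln were lost without SA library 2 at edgeR adjusted p = 0.0798 and 0.0807, Anln also without WT library 1 at edgeR adjusted p = 0.0684. Bub1b, Top2a, Mki67, Ccna2 and Kif2c were lost without SA library 2 at edgeR adjusted p = 0.153, 0.127, 0.219, 0.232 and 0.133, and each also without WT library 1 and without WT library 3 (edgeR adjusted p from 0.0605 to 0.172). Some were also lost without SA library 1 (Bub1b, Top2a, Mki67 and Kif2c, up to 0.129), SA library 3 (Bub1b, Top2a, Mki67 and Ccna2, up to 0.143), SE library 2 (Mki67 and Ccna2, up to 0.0563) or SE library 1 (Mki67, 0.0559). Nusap1 was lost without WT library 1 or any 1 of the SA libraries (edgeR adjusted p from 0.0544 to 0.113). Cenpa was lost without SA library 1 (edgeR adjusted p = 0.219), SA library 2 (0.101), WT library 1 (0.0967) or WT library 3 (0.150).

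In SE against SA, Hmmr, Top2a, Ccnb1, Ccnb2 and Kif2c were called in every one of the alternatives that tested them. The count of genes called higher was 5 without SE library 1, 7 without SA library 2 and 8 without SA library 3. The 13 others all lost the call without SE library 1 or SA library 2. Over all tested genes, 644 were called higher with all libraries. That count was 382 without SE library 1, 309 without SA library 2 and 413 without SA library 3. Ttk and Ube2c were lost without SE library 1 only (edgeR adjusted p = 0.0561 and 0.0676), and the weakest, Foxm1, stood at edgeR adjusted p = 0.257 without it. No estimate of a called gene changed sign in any alternative.

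The 6 genes with a mean of at least 20 CPM (Bub3, Cdc25b, Cenpa, Incenp, Mki67 and Top2a) had a median log2 change from WT to SA of -0.21, against -0.45 for the other 44. From WT to SE these medians were -0.08 and 0.00. Per kilobase of annotated exon, Incenp (12.4 CPM per kb), Bub3 (12.1) and Cdc25b (8.49) were the highest of the 50 over all libraries, followed by Cenpa (6.84) and Cks2 (6.29), and Cdc25c was the lowest (0.154). Ccnb2 stood at 4.6 CPM per kb and Ccnb1 at 1.72. Genes with a CHR match had a median change from WT to SA of -0.42 (11 of 33 lower), those without one -0.49 (2 of 9 lower), and those with no promoter window -0.34 (1 of 8 lower). Of all tested genes, 2.1% were called lower. The 9 without a match in the letters searched include Ccnb1 and also Pttg1, whose window lay inside the gene.

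Of 114 further genes, listed under mitotic entry, spindle, kinesins, kinetochore, APC/C, condensin, cohesin and cytokinesis, 113 were tested. In SA against WT 8 were lower (7.08%) and 0 higher, against 2.1% and 1.97% of all tested genes, with a median of -0.08. The largest falls were of Aspm, a spindle pole protein (5.24 to 2.39 CPM, 2.18-fold, edgeR adjusted p = 0.00097), the centrosomal kinase Nek2 (3.89 to 1.9 CPM, 2.05-fold, edgeR adjusted p = 0.00569) and the kinesin Kif18b (3.15 to 1.84 CPM, 1.71-fold, edgeR adjusted p = 0.0342, lost without any 1 of the 6 SA and WT libraries, up to 0.122 without SA library 2). None of the 15 APC/C subunits, 8 condensin genes or 11 cohesin and separation genes was called in that comparison, where 4.07% of all tested genes were called. In lists this short, 0 calls is near that share.

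In SE against WT 2 of the 113 were higher and 2 lower (3.54% called, against 5.04% of all tested genes), with a median of 0.01. Pkmyt1, a kinase that inhibits Cdk1, rose from 6.54 to 9.99 CPM (1.54-fold, edgeR adjusted p = 0.0233, lost without SE library 1 at 0.171, WT library 1 or WT library 3), and Haus8, of the augmin complex, from 90.9 to 120 CPM (1.32-fold, edgeR adjusted p = 0.000509). Ncapg2, a condensin II subunit, fell from 47.6 to 35.1 CPM (1.36-fold, edgeR adjusted p = 0.00481), and Numa1, a spindle pole protein, from 283 to 239 CPM (1.18-fold, edgeR adjusted p = 0.0374, lost without most single libraries, up to 0.201 without SE library 1). Against SA, 14 were higher in SE (12.4%) and 0 lower, against 4.77% and 5.42% of all tested genes. The largest rises were of Kif18b (1.85-fold), Neil3 (1.85-fold) and Nek2 (1.84-fold). These had edgeR adjusted p of 0.00745, 0.0126 and 0.0127 and lost the call without SE library 1 (0.0605), SA library 2 (0.0696) and SE library 1 (0.073) respectively.

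The 54 genes of G1/S and DNA replication, which act before G2, had 0 calls lower in SA than in WT. Against WT, 2 were higher in SA and 0 lower (1.97% and 2.1% of all tested genes), 43 estimates were positive and the median was 0.11. The 2 were Cdk6 (42.8 to 53.2 CPM, edgeR adjusted p = 0.0132, lost without SA library 1 at 0.075, SA library 3 or WT library 3) and Ccnd2, cyclin D2, which had 1 to 3 counts per library in WT and 13 to 24 in SA (edgeR adjusted p = 0.000928). In SE against WT 9 were higher and 1 lower (2.35% and 2.69% of all tested genes), with a median of 0.28. Uhrf1, a maintenance factor of DNA methylation, was 1.59-fold higher (edgeR adjusted p = 0.00459) and the helicase subunit Mcm5 1.49-fold (edgeR adjusted p = 0.0216, lost without any 1 of the WT libraries, SE library 1 or SE library 3, and at 0.281 without WT library 2 and SE library 3 together), while Ccnd3, cyclin D3, was 1.25-fold lower (edgeR adjusted p = 0.0303, lost without several single libraries and at 0.111 without WT library 1 and SE library 2 together). In SE against SA 9 were higher and 3 lower (4.77% and 5.42% of all tested genes), with a median of 0.16.

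Summed CPM of the 50 mitotic genes was 600.7 to 660.5 in WT, 468.5 to 549.1 in SA and 585.1 to 653.2 in SE, with no overlap between SA and the others. The G1/S sum was 1347 to 1428 in WT, 1411 to 1600 in SA and 1557 to 1683 in SE. The ratio of the mitotic to the G1/S sum was 0.462, 0.442 and 0.447 in the WT libraries, 0.343, 0.332 and 0.360 in those of SA and 0.388, 0.386 and 0.371 in those of SE. The 3 genotypes did not overlap in this ratio, which was highest in WT and lowest in SA. Abundant genes weigh most in both sums, with Pcna at 373 CPM of the G1/S sum and Bub3 at 81.8 CPM of the mitotic sum in WT on average.

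**Figure D5:**
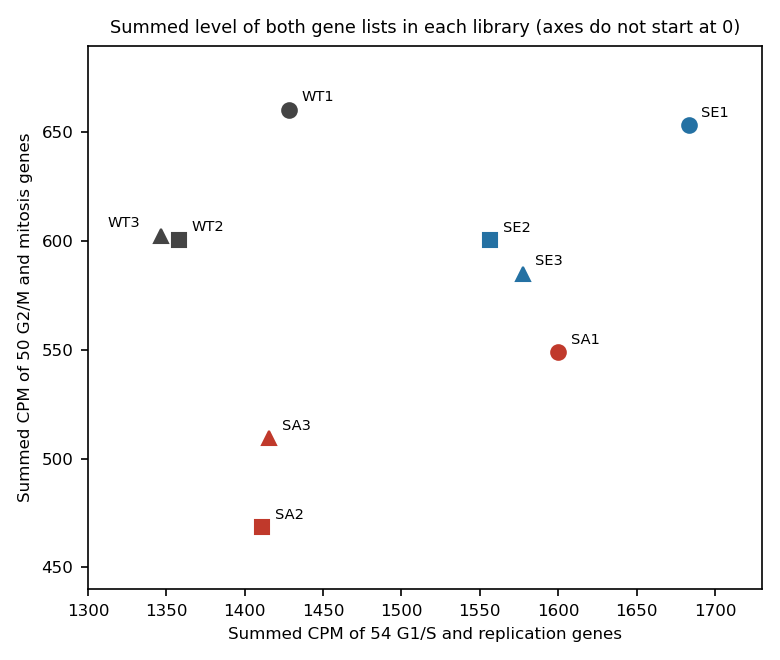
Summed CPM of the 50 G2/M genes (y axis) against summed CPM of 54 G1/S and replication genes (x axis) in each library; neither axis starts at 0. The SA libraries lie lowest on the y axis, at 468.5 to 549.1, and the SE libraries lie to the right of the WT libraries at a like height.

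Of 28 regulators of these promoters and of Cdk1 (E2F, pocket protein, DREAM and MuvB, B-MYB, NF-Y and Cdk inhibitor genes), 27 were tested. Those called were 3.7% in SA against WT, 7.41% in SE against WT and 11.1% in SE against SA, near the 4.07%, 5.04% and 10.2% of all tested genes. In SA against WT only the Cdk inhibitor gene Cdkn1c was called, lower (2.5 to 0.919 CPM, edgeR adjusted p = 0.00923, lost without SA library 1 at 0.0783). In SE against WT the inhibitor gene Cdkn1b (38.1 to 29.2 CPM, edgeR adjusted p = 0.0216) and Tfdp2, an E2F partner (13 to 9.59 CPM, edgeR adjusted p = 0.0427), were lower. In SE against SA Nfya, an NF-Y subunit, was higher (255 to 305 CPM, edgeR adjusted p = 0.0254), and Cdkn1b (37.5 to 29.2 CPM, edgeR adjusted p = 0.0207) and Cdkn2b (1.24 to 0.6 CPM, edgeR adjusted p = 0.0443) were lower. Each of these 5 calls from SE was lost without 1 or more single libraries, with highest edgeR adjusted p of 0.111 (without WT library 3), 0.216 (without WT library 1), 0.151 and 0.0980 (both without SA library 2) and 0.128 (without SE library 3), in that order.

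The 9 libraries held 17286617 to 24618608 counts each. A level of 3 counts equals 0.122 to 0.174 CPM at these depths, a limit that covers counting error only. Stat6 RNA was at 187 to 201 CPM in WT libraries, 194 to 200 CPM in SA libraries and 284 to 312 CPM in SE libraries, and gene counts do not show the substituted codon. All 8 core macrophage markers were tested, with a summed level of 18589 to 23778 CPM. Cells of other types were looked for by their markers. Of the 9 T and NK cell markers, Cd3e, Cd3g and Ncr1 were at 0 in all 9 libraries, Cd4 was at 71 to 123 counts per library, Klrb1c at 0 to 13 and Lck at 2 to 11, and the sum was 5.67 to 6.51 CPM in the WT libraries, 5.49 to 5.86 CPM in the SA libraries and 4.34 to 4.996 CPM in the SE libraries. The sum of the 12 mesothelial and fibroblast markers differed by genotype, at 10.4 to 11.8 CPM in the WT libraries, 41.5 to 45.9 CPM in the SA libraries and 15.99 to 18.05 CPM in the SE libraries. Col1a1 and Col1a2 led it in SA, and Pdpn led it in WT and SE (6.26 CPM in WT, 5.24 in SA, 8.22 in SE). Msln, Krt19 and Wt1 were at 0 in all libraries. Of the 5 tested markers, 3 were called higher in SA than in WT, where 1.97% of all tested genes were. Col3a1 was at 0.178 CPM in WT, 1.92 CPM in SA and 0.496 CPM in SE. Dcn, which was not tested, had 0 to 1 counts per library in WT, 5 to 10 in SA and 0 to 2 in SE. Pdgfra, also not tested, had 0 to 1, 4 to 6 and 0 to 1, and Lum and Upk3b had 0 to 1 in every library. The sum of the 6 monocyte and small peritoneal macrophage markers was 113.8 to 117.8 CPM in the WT libraries, 143.2 to 160.8 CPM in the SA libraries and 125.3 to 141.2 CPM in the SE libraries, with Fn1 at 13.1 CPM in WT, 35.5 CPM in SA and 25.3 CPM in SE. That of the 7 resident large peritoneal macrophage markers was 5.91 to 6.39 CPM in the WT libraries, 6.82 to 7.66 CPM in the SA libraries and 7.69 to 8.13 CPM in the SE libraries, with Rarb at 0 in all. Mean sums in WT, SA and SE were 180, 179 and 199 CPM for neutrophil markers. For B cell markers they were 25.7, 23.8 and 27.9 CPM, and for erythroid and platelet markers 28.0, 23.1 and 30.1 CPM. Eosinophil markers gave 27.3, 24.6 and 23.8 CPM, dendritic cell markers 3.86, 3.83 and 2.60 CPM. Mast cell and basophil markers gave 1.26, 1.13 and 1.27 CPM. Csf3r, Cd22 and Pf4 led the neutrophil, B cell, and erythroid and platelet sums. The part of these markers in the lower mitotic transcripts of SA was not tested.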

How the data were processed

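Poly(A) RNA of 9 libraries, 3 per genotype, was analysed from the raw read counts per Ensembl gene that the authors deposited. HISAT2 2.1.0, featureCounts and mm10 are named in the submitters' processing notes. Which annotation and strand setting the authors counted with, and how reads with several matches were treated, is not given in the sources used here. GENCODE M21 held 55141 of the 55401 IDs and gave their symbols and exon lengths. Groups followed the genotype labels. In R 4.3.3 and edgeR 4.0.16, filterByExpr on genotype (minimum count 10, minimum total 15) kept 13501 genes, TMM scaled the libraries, and a robust quasi-likelihood fit of all 9 libraries on genotype (6 residual degrees of freedom) was tested 2-sided, with Benjamini-Hochberg adjustment over all tested genes and calls under 0.05. Standard errors were taken from the estimate and its F value, and 95% intervals from a t distribution with 6 degrees of freedom. The test itself used more degrees of freedom, so an interval can include 0 where its unadjusted p is under 0.05. The scripts were tested on simulated data. Replicate libraries differed by more than sampling noise (chi-square per degree of freedom 3.6 to 16.03), so none was merged. No library was left out of the main results.

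The members and lists were chosen with earlier results of these data known. Every member could be named; those called in any comparison, and the defining member of each role, got their CPM in every library. Of other mitosis genes the 3 largest called changes per comparison and direction, of G1/S genes the 2 largest, and every called regulator could be named. Alternatives were library totals in place of TMM, DESeq2 1.42.0, no low-count filter, genes of at least 5 CPM only, the replicate number as a block, only the 2 genotypes compared, each library left out in turn, and 2 pairs of libraries left out. Promoter letters were matched by exact search on both strands in the RefSeq windows.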

Additional observations from a re-analysis of the deposited data

How the results depend on the processing

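The count of mitotic genes called lower in SA against WT, 14, was 9 with library totals in place of TMM, 14 with DESeq2, 20 with no low-count filter, 7 among the 30 genes of at least 5 CPM, 14 with only the 2 genotypes compared, 24 without WT library 2 and SE library 3, and 6 without WT library 1 and SE library 2. Leaving out each library in turn gave 5 (without SA library 2) to 17 (without WT library 2). Of all tested genes, 283 were called lower in the main analysis, 229 with library totals, 300 with DESeq2 and 357 with no filter. It was 210 at 5 CPM or more and 288 with only the 2 genotypes compared. Without WT library 2 and SE library 3 it was 438, and without WT library 1 and SE library 2 it was 264. Without SA library 2 it was 170, and without WT library 2 it was 264. The count called higher in SE against SA, 18, was 15 with library totals, 18 with DESeq2, 23 with no filter, 10 at 5 CPM or more, and 5 (without SE library 1) to 22 (without WT library 2) with 1 library left out. Of all tested genes, 644 were called higher in the main analysis, 473 with library totals and 658 with DESeq2. It was 764 with no filter, 514 at 5 CPM or more, 382 without SE library 1 and 868 without WT library 2. In SE against WT the count lower was 0 to 1 and the count higher 0 to 1 with 1 library left out, the 0 lower without WT library 3 and the 1 higher without WT library 1. All tested genes called lower numbered 363 in the main analysis and 177 without WT library 3. Those called higher numbered 317 in the main analysis and 201 without WT library 1. The cause of these shifts was not tested. Over 2490 single-gene values under alternatives, 2324 stayed on the same side of the threshold, 109 lost a call and 57 gained one. Among values with a call in the main or the alternative analysis, 0 changed direction. Estimates without a call could change sign, as that of Kif11 in SE against WT did in 7 alternatives.

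The labels tie libraries of the same number by nothing but that number. The correlation of their deviations from the genotype means ran from -0.195 to 0.105 over 9 pairs, and 1 was above 0.1. With the replicate number as a block, 16 genes were lower in SA against WT, 1 lower in SE against WT and 19 higher in SE against SA. These held 13 of the 14 and 17 of the 18 genes called without it. Over all tested genes the block gave 258 lower, 301 lower and 553 higher in the same 3 comparisons. Cenpa in SA against WT (edgeR adjusted p = 0.0615) and Foxm1 in SE against SA (edgeR adjusted p = 0.0591) were not called with the block. Depth limits the scarcest genes, such as Cdc25c at under 1 CPM in most libraries.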
